A study of Mus musculus with 10 samples.

Results

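What a Western diet added in livers already exposed to carbon tetrachloride (CCl4) was read from 4 of the 10 RNA-seq libraries of a mouse liver study. The pools from mice on Western diet plus CCl4 were set against the pools from mice on normal diet plus CCl4, and each pair had the same duration, 12 or 24 weeks. CCl4 was thus common to all 4 libraries, and the labels name diet as the difference between the groups. Both groups were represented by 1 pool of 4 mice at each duration, so no condition had a replicate pool and the 12-week and 24-week pairs served as the 2 repeats. Pools given oil, the vehicle of CCl4, on normal and on Western diet (1 pool of 4 mice per duration) are used beside them, and the 2 tumour libraries only in the filter on low values. The labels name no strain, sex, age, diet composition, or dose and schedule of CCl4. The rule took every gene that reached a normalised count of 1 in 2 or more libraries out of 10, which kept 12648 of 24062 genes, and 6447 of the rest were at 0 in all libraries.

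CCl4 is a hepatotoxin that the cytochrome Cyp2e1 converts to a reactive radical, and since Cyp2e1 is concentrated in the hepatocytes around the central vein, the injury is centred there. A ring of hepatocytes next to that vein, kept in its state by Wnt signalling, takes up glutamate and ammonia and makes glutamine, whereas urea synthesis lies nearer the portal tract. A Western diet is rich in fat and sugar, and usually in cholesterol. Hepatocytes store fat in droplets whose surface proteins (perilipins and the CIDE family) set droplet size, and they shut down their own cholesterol synthesis when sterol is plentiful.

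The 4 CCl4 liver libraries held 24368431 (12 weeks) and 30137802 (24 weeks) reads for the normal diet, and 25532382 and 29491139 for the Western diet, and the oil libraries 24082712 to 27165428. The hepatocyte protein albumin (Alb) was abundant in all of them and stood at 68362 and 58738 on the normal diet and 84121 and 54802 on the Western diet, the first value of each pair being 12 weeks and the second 24 weeks, as throughout. Cyp2e1 itself stood at 6858 and 4867 on the normal diet and 5042 and 4067 on the Western diet, a difference of -0.35 ± 0.24 on the log2 scale (adjusted p = 0.822). Values are the authors' normalised read counts. Differences are log2(value + 1) on Western minus normal diet, with the standard error of a limma fit to the 8 liver libraries and p-values adjusted over all 12648 genes. On that scale the change of a gene with few reads is understated. The fit removes the shift between durations that all groups share. The p-values thus measure a difference against how unequally the 4 groups changed between durations, not against the spread between animals.

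Western diet changed 6 genes in CCl4 livers at an adjusted p under 0.05, and 5 of the 6 were lower. The genes that fell were the droplet gene Cidea, the glutamine-cycle genes Slc1a2 and Glul, the phosphatase gene Lhpp and the fatty acid elongase gene Elovl3. Squalene epoxidase (Sqle), a step of cholesterol synthesis, rose. Calls were rare in this comparison: 0.0474% of tested genes in all, 0.00791% higher and 0.0395% lower. An unadjusted p under 0.05 was reached by 373 genes on the higher side (2.95%) and 516 on the lower side (4.08%). Tested on whole reads recovered from the values, edgeR called 1 gene higher (0.00791%) and 4 lower (0.0316%), missing only Elovl3 of the 6. DESeq2 called 16 higher (0.127%) and 51 lower (0.403%), all 6 genes among them. The count rested on single pools: leaving out the 12-week CCl4 pool on normal diet gave 2 calls, as did leaving out either oil pool on Western diet. Leaving out the 24-week CCl4 pool gave 34 calls when it was the one on normal diet and 117 when it was the one on Western diet.

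**Figure D1:**
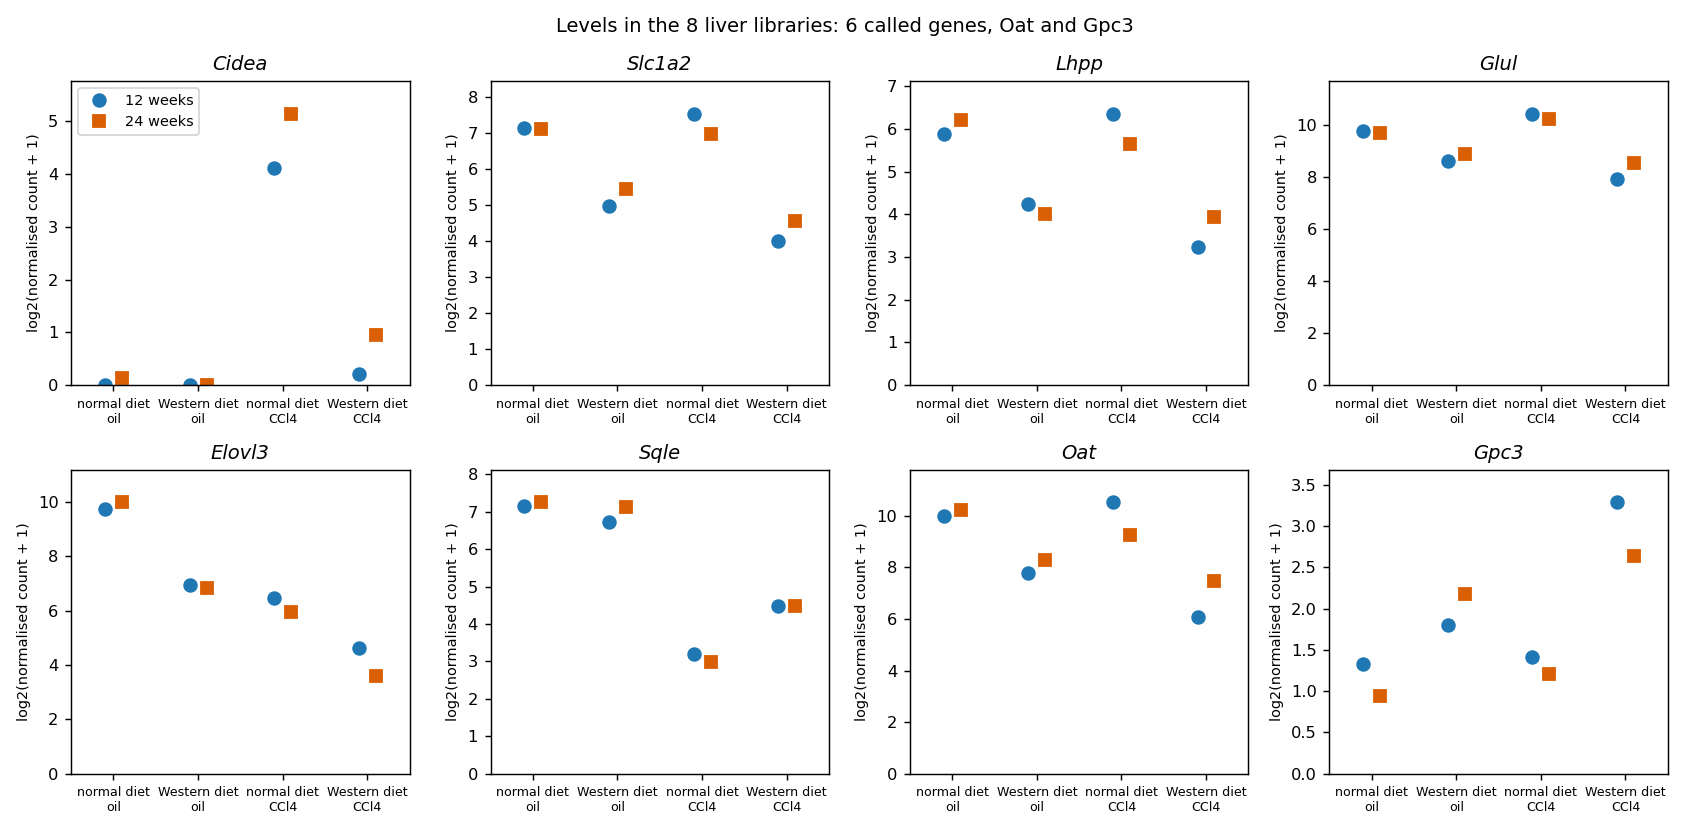
Normalised counts of the 6 genes past the threshold, and of Oat and Gpc3, in the 8 liver libraries, as log2(normalised count + 1) on the vertical axis, with circles for 12 weeks and squares for 24 weeks. Each point is 1 pool of 4 mice; in the CCl4 livers Cidea, Slc1a2, Lhpp, Glul, Elovl3 and Oat lay lower on the Western diet at both durations, and Sqle and Gpc3 higher.

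Glul and Slc1a2, genes of the glutamine-making zone around the central vein, fell on the Western diet. Glutamine synthetase (Glul), which joins ammonia to glutamate, stood at 1373 and 1185 on the normal diet and 238 and 369 on the Western diet. The glutamate transporter Slc1a2, which brings the substrate into the same cells, stood at 185 and 125 on the normal diet and 14.9 and 22.5 on the Western diet. The diet groups did not overlap for either gene, with the Western-diet pools at the bottom. Here and below such a separation is 2 pools against 2, and its share over all tested genes was not counted. Glul fell 4.29-fold, a log2 difference of -2.10 ± 0.20 (adjusted p = 0.0109). Slc1a2 fell 7.91-fold, a log2 difference of -2.98 ± 0.24 (adjusted p = 0.00439). Without CCl4 both genes were also lower on the Western diet: Glul at 866 and 809 against 387 and 474, and Slc1a2 at 139.6 and 137 against 30.2 and 42.4. Slc1a2 stayed past the threshold whichever pool was left out, and Glul in 5 of 8 such fits, with a highest adjusted p of 0.165. In bulk tissue, fewer cells of this zone and less RNA per cell cannot be told apart.

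Ornithine aminotransferase (Oat), which links ornithine to glutamate in those cells, had the widest log2 difference of the central-vein genes listed. It stood at 1469 and 605 on the normal diet and 65.6 and 175 on the Western diet, and the lowest normal-diet value was above the highest Western-diet value. The difference was -3.12 ± 0.47, past the threshold in DESeq2 (adjusted p = 0.00507) but not in limma (adjusted p = 0.0811), and it was wider at 12 than at 24 weeks (-4.46 at 12 weeks and -1.78 at 24 weeks). Lhpp, a phosphatase that acts on phosphohistidine and phospholysine, lies near Oat on chromosome 7, with start sites 34.2 kb apart. In GRCm38 Lhpp is at chr7:132610638-132706420 on the plus strand and Oat at chr7:132557478-132576398 on the minus strand. Whether another gene lies between them was not checked. Lhpp stood at 81.3 and 48.95 on the normal diet and 8.49 and 14.3 on the Western diet, and it fell 5.32-fold, a log2 difference of -2.41 ± 0.28 (adjusted p = 0.0318). This call was kept in 2 of the 8 fits that left out a pool, with a highest adjusted p of 0.198. In the oil livers Oat also was lower on the Western diet, at 1024 and 1187 against 217 and 307, and Lhpp at 57.99 and 73.2 against 17.8 and 15.2.

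Because these genes were lower together, the stretch of 250 bases before the RefSeq start site is shown for the 3 of them found in the RefSeq promoter table (GRCm38.p6). Glul lies at chr1:153899944-153909723 and Slc1a2 at chr2:102658659-102790784, both on the plus strand. Capitals mark the core CTTTGA that TCF/LEF factors, the DNA-binding partners of beta-catenin, recognise on either strand, and the box CCAAT of NF-Y on either strand. The windows are chr2:102706188-102706437 for Slc1a2 and chr1:153899679-153899928 for Glul, both on the plus strand, and chr7:132576399-132576648 on the minus strand for Oat. The Slc1a2 window belongs to a start site inside the GENCODE gene, not to the start of the gene.
Slc1a2: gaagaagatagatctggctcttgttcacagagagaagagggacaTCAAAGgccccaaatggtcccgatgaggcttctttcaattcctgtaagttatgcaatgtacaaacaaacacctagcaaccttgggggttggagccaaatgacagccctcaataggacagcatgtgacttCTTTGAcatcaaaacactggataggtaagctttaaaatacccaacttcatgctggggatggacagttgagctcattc
Glul: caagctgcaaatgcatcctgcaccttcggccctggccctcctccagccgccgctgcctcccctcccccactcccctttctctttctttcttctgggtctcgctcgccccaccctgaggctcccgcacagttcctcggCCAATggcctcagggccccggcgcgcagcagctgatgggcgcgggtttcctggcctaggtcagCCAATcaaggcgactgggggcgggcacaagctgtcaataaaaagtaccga
Oat: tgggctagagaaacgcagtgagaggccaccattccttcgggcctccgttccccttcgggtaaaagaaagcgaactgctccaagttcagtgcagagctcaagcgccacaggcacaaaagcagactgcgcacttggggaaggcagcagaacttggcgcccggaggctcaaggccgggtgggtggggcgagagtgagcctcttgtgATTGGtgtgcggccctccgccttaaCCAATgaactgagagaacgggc
The Slc1a2 window held 2 matches to CTTTGA, which end 201 and 72 bases before the start. Of 32851 promoter windows of that length, 13.8% held at least 1 such match and 1.37% at least 2. The Glul and Oat windows held no match to CTTTGA and 2 matches each to CCAAT, which 33.8% of the windows held at least once. The sterol element TCACNCCAC, searched on both strands as well, was in none of the 3 windows and in 1.05% of the 32851. A match of letters is a description of the window, not evidence of binding.

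The wider list of central-vein genes leaned the same way. Of 24 tested members 2 were called (Glul and Slc1a2), 10 had an unadjusted p under 0.05 on the lower side and 0 on the higher side. 17 members were lower in both weeks and 1 was higher, against 27.6% and 28.2% of all tested genes. The median difference was -0.40 (-0.66 at 12 weeks and -0.19 at 24 weeks), beside 0.005 over all genes. In oil livers the list did not lean lower, with a median of 0.12, although Glul, Slc1a2 and Oat were lower there too. Tbx3, a transcription factor under Wnt control, stood at 38.4 and 26.4 on the normal diet and 10.6 and 14.1 on the Western diet, and its difference of -1.31 ± 0.23 passed in DESeq2 (adjusted p = 0.000191) but not in limma (adjusted p = 0.129). The carboxylate transporter gene Slc13a3 stood at 60.5 and 49.3 on the normal diet and 8.49 and 25.3 on the Western diet. Direct Wnt readouts separated less: Axin2 differed by -0.82 at 12 weeks and -0.04 at 24 weeks, and Lgr5 by -0.97 at 12 weeks and 0.03 at 24 weeks. Cyp1a2, another central-vein cytochrome, differed by 0.07 at 12 weeks and -0.03 at 24 weeks. The 3 widest differences were those of Oat, Slc1a2 and Glul, which handle glutamate and glutamine.

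Genes of the opposite, periportal zone were mostly higher, mainly at 12 weeks. 5 of 23 tested members had an unadjusted p under 0.05 on the higher side and 0 on the lower side, and none was called by limma, edgeR or DESeq2. 13 members were higher and 0 lower in both weeks, and the median was 0.28 (0.50 at 12 weeks and 0.02 at 24 weeks). Histidase (Hal), which breaks down histidine, stood at 235 and 128 on the normal diet and 359 and 199 on the Western diet, higher on the Western diet within each week although the groups overlapped. Carbamoyl phosphate synthetase (Cps1), the entry of the urea cycle, stood at 3072 and 2462 on the normal diet and 4596 and 2846 on the Western diet. Its groups overlapped, with the Western diet higher within each week, and the difference of 0.40 ± 0.21 did not pass the test (adjusted p = 0.772). Summed over the hepatocyte identity list, levels were 120300 and 102000 on the normal diet and 140400 and 96050 on the Western diet, and the part of hepatocyte content in the zonal differences was not tested.

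**Figure D2:**
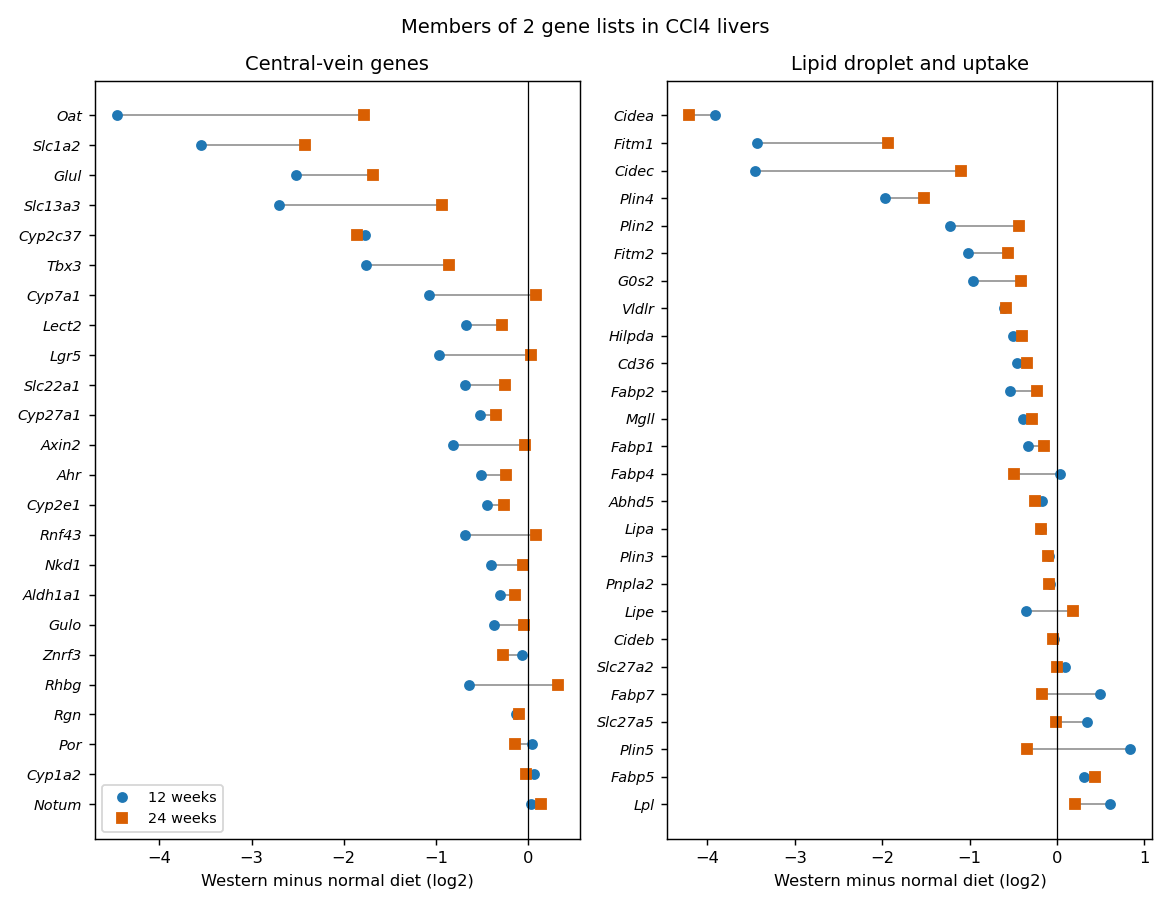
Difference of each tested member (Western minus normal diet in CCl4 livers, log2 of value + 1, horizontal axis) for genes of the central-vein zone and of lipid droplets and uptake, with circles for 12 weeks and squares for 24 weeks. Oat, Slc1a2 and Glul stand out in the first panel and Cidea, Fitm1, Cidec and Plin4 in the second.

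Of the lipid droplet and uptake genes 1 passed the test, Cidea, which fell. Cidea, a droplet-fusion protein best known from brown fat, stood at 16.4 and 34.4 on the normal diet and 0.154 and 0.919 on the Western diet. The 2 Western-diet values rest on 4 and 32 reads, against 413 and 1159. Cidea fell 16.7-fold on the log2(value + 1) scale, a difference of -4.06 ± 0.28 (adjusted p = 0.00247), and stayed past the threshold whichever pool was left out, with a highest adjusted p of 0.0148. In the oil livers it was close to absent, at 0 and 0.0915 on the normal and 0 and 0 on the Western diet, so the normal-diet CCl4 pools held the 2 highest of the 8 liver values. Its relative Cidec, which makes large single droplets, stood at 154 and 206 on the normal diet and 13.1 and 95.3 on the Western diet. Cidec did not pass the test (-2.28 ± 0.56, adjusted p = 0.405), and the difference was wider at 12 than at 24 weeks (-3.46 at 12 weeks and -1.10 at 24 weeks).

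Several other droplet genes were lower in both weeks without passing the test in limma, and some were not. Fitm1, which helps droplets bud from the endoplasmic reticulum, stood at 55.4 and 50.8 on the normal diet and 4.22 and 12.6 on the Western diet (-2.68 ± 0.40, adjusted p = 0.0811, and 0.0389 in DESeq2). The perilipin Plin4, a droplet coat protein, stood at 28.2 and 92.5 on the normal diet and 6.49 and 31.5 on the Western diet (-1.75 ± 0.34, adjusted p = 0.1795, and 1.57e-05 in DESeq2). Plin2, the main coat protein of hepatocyte droplets, stood at 1047 and 941 on the normal diet and 449 and 696 on the Western diet (-0.83 ± 0.19, adjusted p = 0.353, and 0.0158 in DESeq2). The diet groups of Fitm1 and Plin2 did not overlap, whereas the Plin4 value of the Western-diet pool at 24 weeks exceeded that of the normal-diet pool at 12 weeks. The coat protein gene Plin5 differed by 0.84 at 12 weeks and -0.34 at 24 weeks, and Plin3 by -0.09 at 12 weeks and -0.10 at 24 weeks. The lipase gene Lpl was higher in both weeks, by 0.60 at 12 weeks and 0.21 at 24 weeks. The lipid uptake receptor Cd36 stood at 281 and 369.7 on the normal diet and 205 and 291 on the Western diet, with overlap, while within each week it was lower on the Western diet (-0.40 ± 0.11, adjusted p = 0.4797). Over the list, 0 of 26 tested members had an unadjusted p under 0.05 on the higher side and 11 on the lower side, 1 was called (Cidea) and 5 were lower in DESeq2. 18 members were lower and 2 higher in both weeks, with a median of -0.23 (-0.34 at 12 weeks and -0.27 at 24 weeks). In oil livers the list median was -0.07, whereas Fitm1 differed by -3.74 ± 0.40.

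Cidea, Cidec and Plin4 are also genes of fat tissue, so adipocyte markers were read in the same pools. Adiponectin (Adipoq), Plin1 and resistin (Retn) were at or below 0.159 in all 4 CCl4 libraries and at 0 in 3 of them. Cfd (adipsin), secreted by fat cells and by macrophages, was the exception, at 45.6 and 5.403 on the normal diet and 0 and 0.661 on the Western diet. The 0 of the Western-diet pool at 12 weeks allows up to 3 reads, or 0.115. Its difference did not pass the test (-3.74 ± 0.71, adjusted p = 0.1698). Of the 20 listed markers of adipocytes, pancreas and gut, 5 passed the filter on low values. Their list summed to 240.9 and 153.9 on the normal diet and 137 and 135.5 on the Western diet. It includes Fabp2, also on the lipid uptake list (-0.54 at 12 weeks and -0.23 at 24 weeks). The sum therefore does not measure carried-over tissue alone. The pancreatic enzymes Pnlip and Cpa1 were at 0 in all 4.

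Of the cholesterol synthesis genes 1 passed the test, Sqle. Sqle, which oxidises squalene to the precursor of the sterol rings, stood at 8.11 and 6.86 on the normal diet and 21.4 and 21.3 on the Western diet, with no overlap (chr15:59315077-59331192 in GRCm38, plus strand). It rose 2.64-fold, a log2 difference of 1.40 ± 0.15 (adjusted p = 0.02298), in both weeks (1.30 at 12 weeks and 1.51 at 24 weeks), and the call was kept in 2 of the 8 fits that left out a pool, with a highest adjusted p of 0.0951. Even so, the Western-diet CCl4 pools lay well below the oil pools, at 142 and 151 on the normal and 106 and 139 on the Western diet. Insig1, a sterol-sensing regulator and itself a target of SREBP2, stood at 180.2 and 135 on the normal diet and 214 and 191 on the Western diet. Across the 26 listed SREBP2 targets, 15 were higher and 5 lower in both weeks, and the median was 0.17 (0.09 at 12 weeks and 0.29 at 24 weeks). Of them 6 had an unadjusted p under 0.05 on the higher side and 1 on the lower side, and DESeq2 also called Sqle alone.

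No gene of sterol efflux and the LXR pathway passed the test in limma. Abcg5 and Abcg8 together pump sterol into bile. Abcg5 stood at 211 and 203 on the normal diet and 172 and 142 on the Western diet and Abcg8 at 231 and 218 on the normal diet and 171 and 150.0 on the Western diet, and neither passed the test (adjusted p = 0.561 and adjusted p = 0.674). The exporter gene Abcg1 differed by 0.52 at 12 weeks and -0.22 at 24 weeks (adjusted p = 0.933). Of 17 tested LXR genes, 4 had an unadjusted p under 0.05 on the lower side and 0 on the higher side, with a median of -0.06 (-0.06 at 12 weeks and -0.14 at 24 weeks). Scd1, the desaturase that makes oleate and one of the most abundant transcripts of CCl4 livers, stood at 47692 and 52024 on the normal diet and 21091 and 31163 on the Western diet. The groups did not overlap (-0.96 ± 0.37, adjusted p = 0.6598, and 0.00189 in DESeq2). In the oil livers Scd1 was at 12830.3 and 12736 on the normal and 13157 and 10184 on the Western diet. Fatty acid synthase (Fasn) was at 924 and 850.1 on the normal diet and 675 and 998 on the Western diet and the regulator Srebf1 at 655 and 438 on the normal diet and 563 and 482 on the Western diet, and in both the diet groups overlapped. Mogat1, which makes diacylglycerol, stood at 6.64 and 6.83 on the normal diet and 1.498 and 4.17 on the Western diet (-1.11 ± 0.27, adjusted p = 0.409). Of 24 genes of fatty acid and triglyceride synthesis, 3 had an unadjusted p under 0.05 on the higher side and 5 on the lower side.

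Genes of fat burning controlled by PPAR-alpha were more often lower. None was called by limma or edgeR, and DESeq2 called 1, the peroxisome division gene Pex11a. Pex11a stood at 75.2 and 87.3 on the normal diet and 40.6 and 46.3 on the Western diet, with both Western-diet values below both normal-diet values (-0.89 ± 0.14, adjusted p = 0.0977, and 0.000406 in DESeq2). The thioesterase Acot3 stood at 19.5 and 19.3 on the normal diet and 9.33 and 10.5 on the Western diet, and Pdk4, which turns cells from glucose to fat as fuel, at 23.3 and 31.7 on the normal diet and 12.9 and 18.7 on the Western diet. Neither gene had overlapping groups, and neither passed the test (adjusted p = 0.526 and adjusted p = 0.398). 1 of 31 tested members had an unadjusted p under 0.05 on the higher side and 11 on the lower side. 19 were lower and 6 higher in both weeks, with a median of -0.18 (-0.23 at 12 weeks and -0.12 at 24 weeks). The hormone gene Fgf21, another target, was at 20.4 and 12.4 on the normal diet and 2.65 and 10.7 on the Western diet, so that its 12-week pair stood far apart and its 24-week pair did not.

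Among detoxification genes, the receptor gene Nr1i3 and several cytochromes of the Cyp2c family were lower on the Western diet. Nr1i3, which encodes CAR, stood at 68.1 and 52.8 on the normal diet and 27.96 and 24.6 on the Western diet, with no overlap and nearly equal differences in both weeks (-1.25 at 12 weeks and -1.07 at 24 weeks). It missed the limma threshold (-1.16 ± 0.15, adjusted p = 0.0664) and passed in DESeq2 (adjusted p = 3.02e-07). The cytochrome Cyp2c29 stood at 744 and 423 on the normal diet and 254 and 179.7 on the Western diet (-1.39 ± 0.20, adjusted p = 0.0733, and 2.63e-09 in DESeq2). Cyp2c37 was at 224 and 101 on the normal diet and 65.3 and 27.2 on the Western diet, and Cyp2c38 at 66.3 and 94.3 on the normal diet and 7.03 and 28.4 on the Western diet. Neither passed in limma (both adjusted p = 0.129) or in DESeq2 (adjusted p = 0.0654 and adjusted p = 0.147). The Cyp2c genes are close copies, so reads may be split between them and the member that differs is uncertain. By contrast Cyp2b10, the classic CAR target, had opposite differences in the 2 weeks (1.62 at 12 weeks and -0.98 at 24 weeks), and Cyp3a11 differed by 0.49 at 12 weeks and -0.24 at 24 weeks. Of 32 listed cytochromes, 3 had an unadjusted p under 0.05 on the higher side and 8 on the lower side. DESeq2 called 3 of the list lower, Cyp2c29 among them but not Cyp2c37 or Cyp2c38.

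Conjugating enzymes and targets of the stress factor NRF2 showed small differences, mostly lower. 0 of 33 tested members had an unadjusted p under 0.05 on the higher side and 11 on the lower side, and 20 were lower and 6 higher in both weeks. The glutathione transferase Gstm2 stood at 154 and 142 on the normal diet and 81.4 and 106 on the Western diet (-0.67 ± 0.13, adjusted p = 0.195, and 0.0137 in DESeq2), though Gstm genes are close copies of each other. Srxn1, which repairs oxidised peroxiredoxins, stood at 135 and 117 on the normal diet and 56.8 and 96.4 on the Western diet (-0.76 ± 0.19, adjusted p = 0.444). The list median was -0.17 (-0.20 at 12 weeks and -0.15 at 24 weeks).

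Of the bile acid genes DESeq2 called 1, Cyp8b1, which was lower on the Western diet in both weeks, and limma and edgeR called 0. Cyp8b1, the sterol 12-alpha-hydroxylase that sets the share of cholic acid, stood at 278 and 189 on the normal diet and 114 and 76.5 on the Western diet, and both Western-diet values were below both normal-diet values. The difference was -1.28 ± 0.23 (adjusted p = 0.129, and 3.02e-05 in DESeq2), nearly equal in both weeks (-1.28 at 12 weeks and -1.29 at 24 weeks). In oil livers Cyp8b1 was lower on the Western diet by a like amount (-1.40 ± 0.23, adjusted p = 0.0197 in limma). Cyp7a1, the rate-limiting enzyme of the pathway, stood at 197 and 81.4 on the normal diet and 93.1 and 86.6 on the Western diet, and its groups overlapped. Cyp7b1, of the alternative pathway, stood at 73.8 and 24.6 on the normal diet and 28.2 and 19.3 on the Western diet (adjusted p = 0.638). Of 28 tested genes of bile acid synthesis and transport, 4 had an unadjusted p under 0.05 on the lower side and 0 on the higher side, and the median of -0.03 (-0.03 at 12 weeks and -0.04 at 24 weeks) was close to that of all genes.

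Genes that are higher in male than in female mouse liver were mostly lower at 12 weeks, in 22 of 30, and not at 24 weeks, in 15 of 30. Of all 12648 tested genes, 6343 were lower at 12 weeks and 6231 at 24 weeks. Elovl3, an elongase of very long fatty acids, stood at 86.2 and 61.1 on the normal diet and 23.5 and 11.1 on the Western diet, with no overlap (chr19:46131897-46135694 in GRCm38, plus strand). It fell 4.26-fold, a log2 difference of -2.09 ± 0.24 (adjusted p = 0.0318). EdgeR gave an adjusted p of 0.0645 for it, and the call was kept in 4 of the 8 fits that left out a pool. In the oil livers Elovl3 was far higher, at 850.0 and 1009.8 on the normal and 123 and 113 on the Western diet. The urinary protein gene Mup1 stood at 63.3 and 2.701 on the normal diet and 3.19 and 0.718 on the Western diet, so the Western-diet value of 12 weeks lay above the normal-diet value of 24 weeks. Mup genes are near-identical copies, and which member differs is uncertain. Of 30 tested genes 9 had an unadjusted p under 0.05 on the lower side and 1 on the higher side. The list median was -0.41 (-0.91 at 12 weeks and -0.02 at 24 weeks). In oil livers the diet difference was wider, with a list median of -1.31. The list summed there to 37970 and 40980 on the normal and 18760 and 14890 on the Western diet. By 24 weeks the summed level in CCl4 livers was low on both diets, at 5646 on the normal and 5932 on the Western diet. At 12 weeks the CCl4 sums were 11660 and 10500.

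Growth hormone signalling through STAT5 maintains that male pattern, and 2 of its regulators were called in DESeq2 but not in limma. Cish, a feedback inhibitor that STAT5 induces, stood at 7.52 and 5.97 on the normal diet and 27.7 and 13.3 on the Western diet, with all Western-diet values on top (1.39 ± 0.30, adjusted p = 0.2705, and 0.000756 in DESeq2). Bcl6, a repressor of female-biased genes that opposes STAT5, stood at 39.5 and 41.6 on the normal diet and 17.6 and 22.8 on the Western diet (-0.98 ± 0.21, adjusted p = 0.267, and 0.00579 in DESeq2). Socs2, another STAT5 target, differed by -0.16 at 12 weeks and 0.12 at 24 weeks. The growth factor gene Igf1 differed by 0.15 at 12 weeks and 0.02 at 24 weeks. Over the 18 genes of this axis the median was 0.0067, close to the 0.005 of all genes.

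Scar matrix genes were modestly higher on the Western diet. Lumican (Lum), a proteoglycan that spaces collagen fibrils, stood at 21.8 and 45.1 on the normal diet and 51.3 and 84.3 on the Western diet (1.04 ± 0.20, adjusted p = 0.163, and 0.000806 in DESeq2). The gelatinase Mmp2 stood at 9.67 and 21.8 on the normal diet and 29.2 and 44.04 on the Western diet (1.24 ± 0.30, adjusted p = 0.362, and 0.0131 in DESeq2). The diet groups overlapped in neither, and in each the closest values of the 2 diets were the Western-diet pool of 12 weeks and the normal-diet pool of 24 weeks. The type I collagen gene Col1a1 stood at 67.2 and 106 on the normal diet and 85.95 and 196 on the Western diet, and Col3a1 at 169 and 235 on the normal diet and 238 and 372 on the Western diet. Neither collagen passed the test (adjusted p = 0.702 and adjusted p = 0.584). In the matrix list, 7 of 35 tested members had an unadjusted p under 0.05 on the higher side and 0 on the lower side, 2 were called by DESeq2 and none by limma or edgeR. 22 members were higher and 3 lower in both weeks, and the median was 0.40 (0.32 at 12 weeks and 0.42 at 24 weeks). In oil livers the diet difference was wider, with a list median of 0.96. There Col1a1 differed by 2.32 ± 0.27 and Col3a1 by 1.91 ± 0.19. Stellate cell and myofibroblast markers, the source of that matrix, summed to 250.4 and 376.5 on the normal diet and 291.8 and 444.6 on the Western diet, and their part in the matrix difference was not tested. The contractile myofibroblast gene Acta2 went the other way, at 6.28 and 6.53 on the normal diet and 3.34 and 5.89 on the Western diet.

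Markers of recruited, lipid-handling macrophages were higher chiefly at 12 weeks. Gpnmb, a glycoprotein of lipid-laden macrophages, stood at 32.3 and 98.4 on the normal diet and 121 and 120.3 on the Western diet, so that the Western-diet pools were alike at both durations and the normal-diet pool of 24 weeks lay nearer to them than that of 12 weeks. Trem2, a lipid receptor, stood at 6.32 and 18.2 on the normal diet and 15.7 and 22.1 on the Western diet, and the lysosomal tetraspanin gene Cd63 at 19.97 and 63.5 on the normal diet and 57.8 and 79.1 on the Western diet. None of the 3 passed the test (adjusted p = 0.595, adjusted p = 0.709 and adjusted p = 0.6598). 5 of 20 tested members had an unadjusted p under 0.05 on the higher side and 0 on the lower side, with no call in limma, edgeR or DESeq2. 14 were higher and 0 lower in both weeks, with a median of 0.41 (0.67 at 12 weeks and 0.24 at 24 weeks). In oil livers the list median was 0.91, and Gpnmb differed by 4.11 ± 0.37. The list summed to 1372 and 2317 on the normal diet and 2147 and 2547 on the Western diet.

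Resident Kupffer cell markers differed less evenly at 24 than at 12 weeks. At 12 weeks all 13 were higher on the Western diet, and at 24 weeks 9 were lower. Of all 12648 tested genes, 6302 were higher at 12 weeks and 6231 lower at 24 weeks. The scavenger receptor Marco stood at 18.2 and 6.47 on the normal diet and 37.4 and 1.61 on the Western diet, and the haemoglobin scavenger Cd163 at 11.1 and 4.898 on the normal diet and 18.8 and 0.632 on the Western diet. The phosphatidylserine receptor Timd4, which marks long-lived Kupffer cells, stood at 5.25 and 2.49 on the normal diet and 7.297 and 0.862 on the Western diet. In each of the 3 the highest and the lowest of the 4 values were both from Western-diet pools. These 3 had the widest falls of the list at 24 weeks, before Folr2 (-0.51) and Clec4f (-0.42). Slc40a1, Nr1h3, Vsig4 and Cd38 differed by only -0.007 to -0.10 at 24 weeks. C1qa, C1qb, C1qc and Id3 stayed slightly higher, by 0.02 to 0.09. With 1 pool per diet and duration the changes of sign have no replicate, and a difference between durations was not tested. The list median was 0.20 (0.55 at 12 weeks and -0.09 at 24 weeks), and 0 of 13 members had an unadjusted p under 0.05 in limma, with no call in edgeR or DESeq2.

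Fetal liver genes, which also mark liver cancer, leaned higher on the Western diet. Glypican-3 (Gpc3), a cell-surface proteoglycan used as a tumour marker, stood at 1.67 and 1.31 on the normal diet and 8.76 and 5.23 on the Western diet, without overlap (1.65 ± 0.26, adjusted p = 0.0884, and 0.000103 in DESeq2). Alpha-fetoprotein (Afp) stood at 2.55 and 1.75 on the normal diet and 11.4 and 3.48 on the Western diet (1.25 ± 0.38, adjusted p = 0.534). The imprinted pair H19 and Igf2 had high values in 1 pool. H19, a noncoding RNA, was at 1.79 and 12.6 on the normal diet and 139 and 18.04 on the Western diet, and the growth factor gene Igf2 at 0.239 and 0.94996 on the normal diet and 6.14 and 1.92 on the Western diet. Most of both differences came from the Western-diet pool of 12 weeks, which is 4 mice in 1 library. H19 did not pass the test (adjusted p = 0.532), and Igf2 passed in DESeq2 (adjusted p = 0.0351) but not in limma (adjusted p = 0.449). Of 27 tested markers 7 had an unadjusted p under 0.05 on the higher side and 1 on the lower side, and the median was 0.25 (0.16 at 12 weeks and 0.47 at 24 weeks). The surface protein gene Ly6d stood at 75.9 and 93.5 on the normal diet and 51.3 and 106 on the Western diet. The lipocalin gene Lcn2, made by injured epithelium and neutrophils, stood at 69.6 and 126 on the normal diet and 35.6 and 168 on the Western diet. In both the Western-diet pools held the lowest and the highest value.

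**Figure D3:**
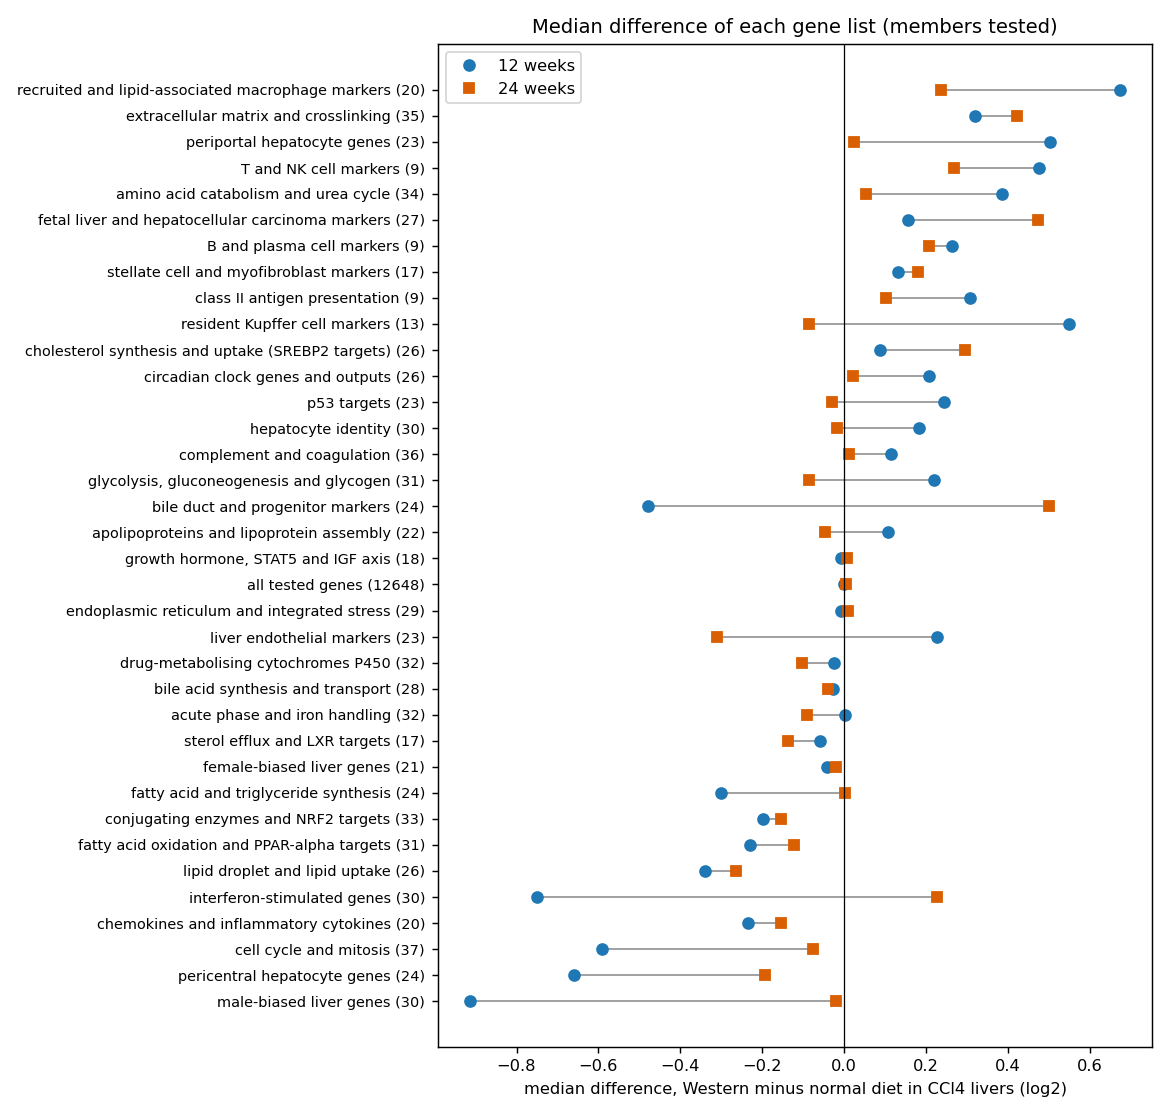
Median difference (Western minus normal diet in CCl4 livers, log2 of value + 1, horizontal axis) of the 35 gene lists with at least 8 tested members and of all tested genes, with circles for 12 weeks and squares for 24 weeks. Central-vein and droplet lists lie below 0 and matrix and recruited macrophage lists above 0 at both durations, whereas interferon, bile duct, endothelial and resident Kupffer cell lists lie on opposite sides of 0.

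Several gene groups differed at 12 weeks and lost or turned their difference by 24 weeks. Of all 12648 tested genes, 6343 were lower and 6302 higher at 12 weeks, and 6231 were lower and 6414 higher at 24 weeks. Cell cycle genes were lower at 12 weeks in 34 of 37 and at 24 weeks in 23, with a median of -0.37 (-0.59 at 12 weeks and -0.08 at 24 weeks). The helicase subunit Mcm2, needed to start DNA replication, stood at 13.1 and 10.8 on the normal diet and 3.69 and 10.2 on the Western diet, and cyclin B1 (Ccnb1) at 2.03 and 2.52 on the normal diet and 0.422 and 2.097 on the Western diet. Interferon-stimulated genes were lower in 28 of 30 at 12 weeks and higher in 27 at 24 weeks, with a median of -0.27 (-0.75 at 12 weeks and 0.23 at 24 weeks). The antiviral gene Rsad2 stood at 36.04 and 11.8 on the normal diet and 10.8 and 13.5 on the Western diet: the normal-diet pool of 12 weeks stood alone, and the other 3 values lay close together. Bile duct and progenitor markers were lower in 19 of 24 at 12 weeks and higher in 19 at 24 weeks, with Epcam at 4.14 and 9.29 on the normal diet and 2.69 and 18.8 on the Western diet. Endothelial markers had the reverse turn, higher in 18 of 23 at 12 weeks and lower in 19 at 24 weeks. None of these 4 lists held a call in limma, edgeR or DESeq2, and 4, 2, 3 and 1 of their members, in that order, had an unadjusted p under 0.05 in limma, all lower. Each turn rests on 1 pool per diet and duration.

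Over all genes the diet difference was wider at 12 than at 24 weeks. Its standard deviation across genes was 0.424 at 12 weeks and 0.257 at 24 weeks. A difference of at least 2-fold was seen in 125 genes on the higher and 209 on the lower side at 12 weeks, and in 24 and 41 at 24 weeks. The sign was the same in both weeks for 7054 genes (55.8%), and across genes, which are not independent replicates and here come from the same 4 libraries, the weekly differences had a Pearson r of 0.264. On the log2(value + 1) scale 8 genes (0.0633%) were at least 2-fold higher in both weeks, and 30 (0.237%) at least 2-fold lower. With a pseudocount of 0.1 in place of 1, the 38 became 86. The 8 were Sqle, Gpc3, Cish, the hepcidin copy Hamp2, the retinoic acid hydroxylase Cyp26a1, the actin-bundling protein gene Espn, Rasl10b and the dipeptidase Dpep1. All 6 genes past the limma threshold are among the 38, and DESeq2 called 26 of them.

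**Figure D4:**
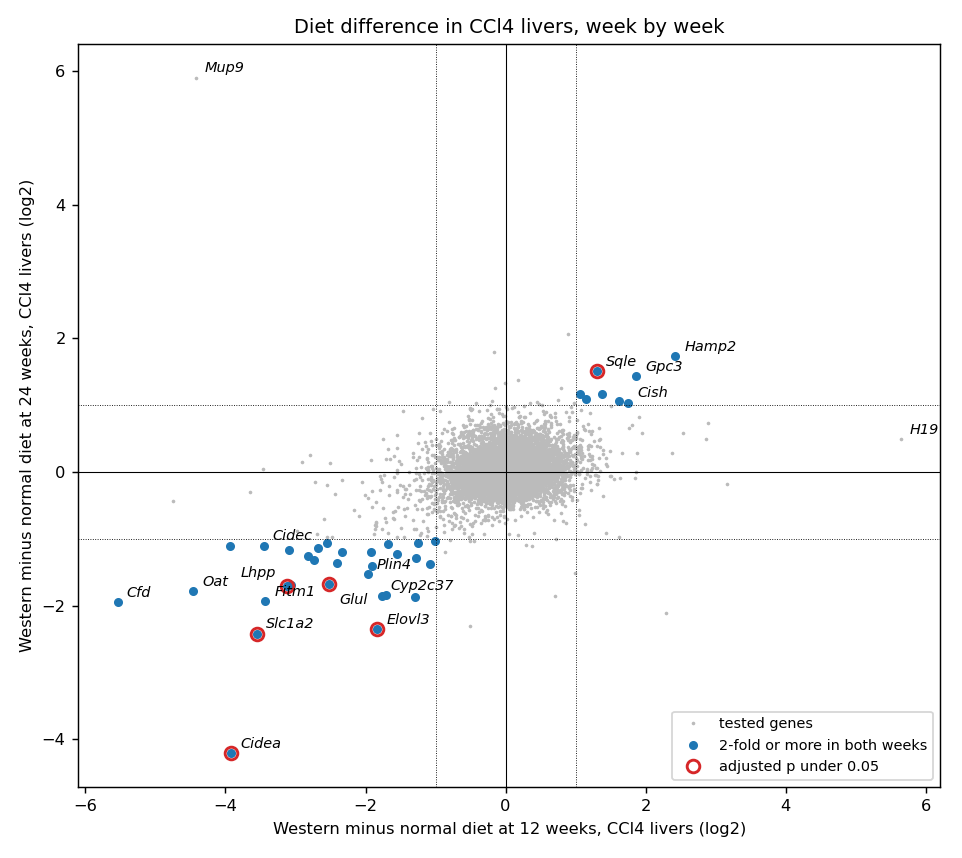
Diet difference of each tested gene at 12 weeks (horizontal axis) and at 24 weeks (vertical axis) in CCl4 livers, both as log2 of value + 1 on Western minus normal diet. Blue points are the 38 genes at least 2-fold apart in both weeks and red rings the 6 genes past the threshold; the cloud is wider along the 12-week axis, and 30 of the 38 lie in the lower left.

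Among the 30 lower genes outside the groups above, several had both Western-diet values below both normal-diet values. The 30 were chosen for being at least 2-fold lower in both weeks, so this separation largely follows from the choice. The calsyntenin gene Clstn3 stood at 38.8 and 32.6 on the normal diet and 4.99 and 12.5 on the Western diet (-2.03 ± 0.28, adjusted p = 0.0733, and 7.44e-09 in DESeq2). Tropomyosin 2 (Tpm2), an actin-binding protein of contractile cells, stood at 18.7 and 13.1 on the normal diet and 4.19 and 5.17 on the Western diet (-1.56 ± 0.22, adjusted p = 0.0733). Themis, best known for T cell selection, stood at 18.02 and 17.6 on the normal diet and 1.96 and 7.44 on the Western diet (-1.91 ± 0.34, adjusted p = 0.129). Of 9 tested T and NK cell markers, 7 were higher and 0 lower in both weeks, against 28.2% and 27.6% of all tested genes. The list summed to only 12.6 and 16.4 on the normal diet and 23.97 and 21.3 on the Western diet. The part of T cell content in the Themis difference was not tested. On the higher side, Hamp2 stood at 37.8 and 12.97 on the normal diet and 208 and 45.4 on the Western diet (2.08 ± 0.30, adjusted p = 0.0788, and 0.00139 in DESeq2), and its neighbour copy Hamp differed by 0.60 at 12 weeks and 0.24 at 24 weeks. Cyp26a1 stood at 24.3 and 14.99 on the normal diet and 64.9 and 34.9 on the Western diet (1.27 ± 0.25, adjusted p = 0.1795, and 0.000103 in DESeq2). In oil livers Clstn3 differed by -1.92 ± 0.28, Hamp2 by 2.66 ± 0.30 and Cyp26a1 by 1.69 ± 0.25. Tpm2 differed there by -0.58 ± 0.22 and Themis by 0.25 ± 0.34.

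Some genes had opposite differences in the 2 weeks. Given as values are the 6 widest, ranked by the smaller of the 2 differences, among genes no less abundant in CCl4 livers than the median gene. This limit leaves out less abundant genes with wider swings, such as Marco and Cyp2b10. Mup9 stood at 25.4 and 0.594 on the normal diet and 0.2304 and 94.2 on the Western diet, an extreme swing within a family of near-identical copies. The lymphatic and sinusoidal receptor Lyve1 was at 16.5 and 26.3 on the normal diet and 37.4 and 14.995 on the Western diet, and the stellate-cell collectin Colec10 at 25.9 and 29.95 on the normal diet and 47.7 and 17.3 on the Western diet. The ubiquitin-like modifier Ubd was at 15.5 and 19.4 on the normal diet and 4.99 and 37.3 on the Western diet, Fam83a at 12.5 and 17.9 on the normal diet and 5.57 and 35.5 on the Western diet and the selenium-binding protein gene Selenbp2 at 131 and 19.2 on the normal diet and 74.7 and 40.7 on the Western diet. In Lyve1 and Colec10 the Western diet was higher at 12 and lower at 24 weeks, and in the other 4 it was the reverse.

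The diet's differences in CCl4 livers were set beside those in oil livers, which come from other pools. In oil livers 183 genes (1.45%) were called higher on the Western diet and 69 (0.546%) lower. Of the 183, 118 were also higher in both CCl4 pairs and 32 lower, with a median of 0.26 with CCl4 against 1.09 with oil. Of the 69, 43 were lower in both CCl4 pairs and 5 higher, with a median of -0.31 against -1.51. Over all tested genes 28.2% were higher and 27.6% lower in both CCl4 pairs. The 2 contrasts share a fit but no library, and since the oil contrast chose these genes, its medians are only descriptive. The shares with the same direction in both CCl4 pairs were thus 64.5% of the 183 and 62.3% of the 69.

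The difference between the 2 diet effects was tested directly as an interaction, and 13 genes (0.103%) passed. Of these 13, edgeR also called 8 and DESeq2 10. Only Sqle and Cidea among the 13 were also called for the diet within CCl4 livers. The diet difference of Sqle was 1.40 ± 0.15 with CCl4 and -0.27 ± 0.15 with oil, an interaction of 1.67 ± 0.21 (adjusted p = 0.03203). For Cidea it was -4.06 ± 0.28 with CCl4 and -0.06 ± 0.28 with oil, an interaction of -4.00 ± 0.40 (adjusted p = 0.00832). The oil pools held 0 to 2 reads of Cidea, so its oil difference is set by the pseudocount and no diet difference can be read there, and its interaction did not pass in edgeR (adjusted p = 0.942) or DESeq2 (adjusted p = 0.748). In most of the other 11 the diet difference was wide with oil and narrow with CCl4. The clock output gene Dbp stood at 1.46 and 2.104 and 55.9 and 38.4 on normal and Western diet with oil. With CCl4 it stood at 63.6 and 42.2 and 62.4 and 50.1 in the same order. Only the normal-diet oil pools were low in Dbp, and the hour of collection was not in the fit. The apolipoprotein gene Apoa4 stood at 91.2 and 119 and 414 and 349 with oil, and at 3307 and 5345 and 2221 and 3512 with CCl4, where the direction was opposite (-2.45 ± 0.31, adjusted p = 0.03203). Glul and Slc1a2 did not pass the interaction test in limma (adjusted p = 0.268 and adjusted p = 0.414), while in DESeq2 Glul passed (adjusted p = 0.0161) and Slc1a2 did not (adjusted p = 0.113). Their differences in oil livers were -0.97 ± 0.20 and -1.92 ± 0.24. The count of 13 was 0 without either Western-diet oil pool, and 79 when the 24-week CCl4 pool on Western diet was left out.

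**Figure D5:**
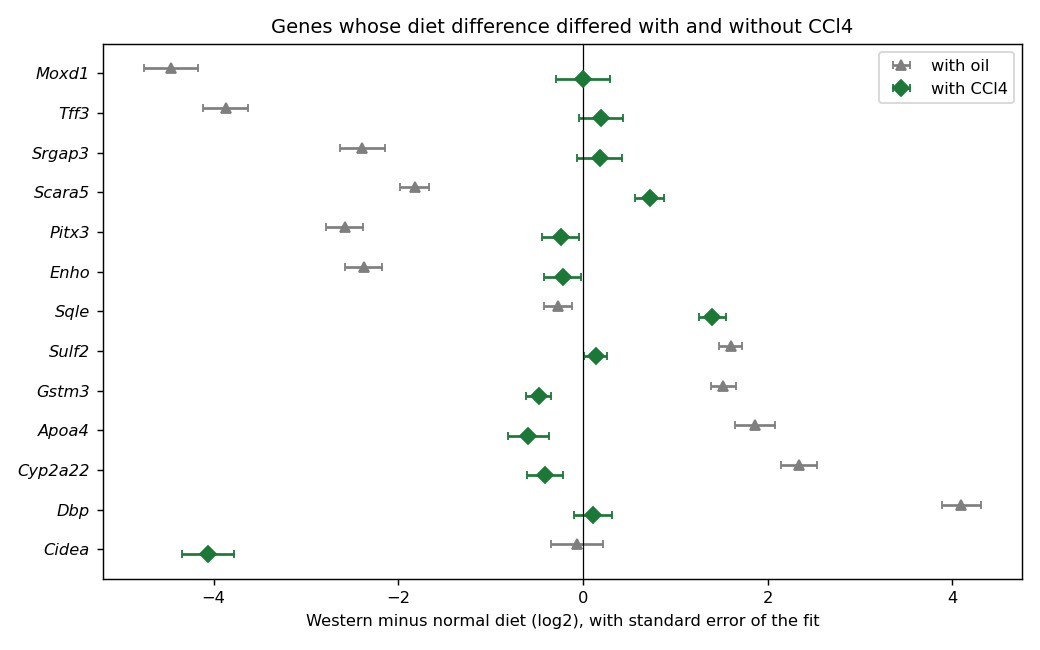
Diet difference (Western minus normal diet, log2 of value + 1, horizontal axis) with its standard error from the fit for the 13 genes whose diet difference differed between oil livers (triangles) and CCl4 livers (diamonds), 2 pools against 2. Sqle differs by diet with CCl4 and little with oil, and Dbp and Tff3 show the reverse; Cidea is near 0 in all oil pools and Moxd1 at 0 in all CCl4 pools, so no diet difference can be read for them there.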

How the data were processed

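Per the labels' protocols, poly-A libraries were made with a TruSeq kit from pooled liver RNA; STAR and mm10 are named in the submitters' processing notes. The authors (read counter, annotation and scaling method not given in the sources used here) deposited 1 table of normalised signal (24062 genes, 10 libraries), in which every value was a whole number of reads within 0.01, times 1 constant per library, so reads were recovered (100% of values).

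Here limma 3.58.1 (R 4.3.3) was fitted to log2(value + 1) of the 8 liver libraries, as 4 group means and a term for week (trend, two-sided, 3 residual degrees of freedom), on genes that reached a value of 1 in 2 or more libraries. Benjamini-Hochberg adjustment ran over 12648 genes, threshold 0.05. The week term pairs pools of equal duration; pools are the only replicates. Up to 3 reads are allowed by a value of 0, and this limit covers counting error only. Alternatives were edgeR 4.0.16 and DESeq2 1.42.0 on recovered reads, another pseudocount (0.1), filters, scalings, and fits without each library, the trend or the week term. The 4 groups come from the labels.

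The genes, 38 gene lists and comparisons were chosen with earlier results of these data known. Of 963 list entries 959 matched the table. Named genes were up to 15 called rises and up to 15 called falls with equal sign in both weeks and a mean in CCl4 livers no lower than that of the median gene (4 genes met this), up to 4 called or 2 uncalled members per list, 37 genes always followed, the 8 most significant interaction genes and the 6 with the widest opposite weekly differences under the same limit on the mean; further genes, and the 2-fold rule for both weeks, were chosen after their values were seen. The fits were tested on simulated data. Coordinates are GENCODE on GRCm38, promoter windows RefSeq. Raw reads were not used here, and some of the named genes are not reported here.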

Additional observations from a re-analysis of the deposited data

Results flagged for a closer look

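In 13 genes the diet difference with CCl4 differed from the diet difference with oil at an adjusted p under 0.05 in limma (2 pools against 2 in each). The gap, as the difference with CCl4 minus the difference with oil on the log2(value + 1) scale, was 1.67 for the sterol enzyme Sqle and -4.00 for the droplet gene Cidea, wider with CCl4, where the Cidea gap rests on oil pools of 0 to 2 reads. Wide negative differences with oil that were near 0 or turned with CCl4 gave gaps of 4.46 for Moxd1, 4.07 for the trefoil factor Tff3, 2.57 for Srgap3, 2.54 for the ferritin receptor Scara5, 2.34 for the transcription factor Pitx3 and 2.15 for Enho, which encodes a secreted peptide. Wide positive differences with oil gave gaps of -3.99 for the clock output Dbp, -2.75 for the cytochrome Cyp2a22, -2.45 for the apolipoprotein Apoa4, -2.00 for the glutathione transferase Gstm3 and -1.46 for the sulfatase Sulf2.

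The genes differ in how much is left to measure. Cidea was at 0 to 0.0915 in the 4 oil pools, so the diet cannot be read from it with oil, and its gap did not pass in edgeR (adjusted p = 0.942) or DESeq2 (adjusted p = 0.748). Moxd1 was at 14.4 and 30.4 on normal diet with oil and at 0 in the other 6 liver pools, so its gap is set by the normal-diet oil pools, depends on the pseudocount, and the diet cannot be read from it with CCl4. Tff3 was at 22.3 and 36.3 on normal diet with oil, 0.855 and 1.19 on Western diet with oil, and 1.67 and 1.16 and 1.54 and 1.98 with CCl4. Pitx3 was at 11.4 and 10.1, 1.07 and 0.853, 0.358 and 0.267 and 0.2304 and 0 in the same order. The CCl4 values of Pitx3 rest on 0 to 9 reads, so its diet difference there is set largely by the pseudocount. The Pitx3 gap did not pass in edgeR (adjusted p = 0.612) or DESeq2 (adjusted p = 0.642), and that of Moxd1 passed in neither. The gaps of Enho and Srgap3 passed in DESeq2 but not in edgeR (adjusted p = 0.0719 and adjusted p = 0.0757). Scara5 was at 10.2 and 20.9 and 2.31 and 4.93 with oil, and at 7.1996 and 14.8 and 14.1 and 22.3 with CCl4, so the diet had opposite signs. Cyp2a22 was at 0.577 and 0.915 and 7.904 and 7.67 with oil, and at 11.7 and 14.04 and 7.34 and 11.9 with CCl4, and it has close copies among the Cyp2a genes. Gstm3 was at 126 and 164 and 406 and 421 with oil, and at 455 and 501 and 289.5 and 407 with CCl4.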

How the results depend on the processing

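Of the 6 genes called for the diet in CCl4 livers, none changed direction in 19 alternatives. All 6 were at least 2-fold apart in the same direction in both weeks, so refits of the same libraries could hardly reverse them. Cidea kept its call in 17, Slc1a2 in 15, Glul in 12, Sqle in 9, Lhpp in 8 and Elovl3 in 7. The count of 6 was 0 without the filter on low values (1181 genes at an unadjusted p under 0.05 in limma), 3 with the stricter filter, 1 without the trend, 1 with all 10 libraries, 2 in the 4 CCl4 libraries alone, and 67 in DESeq2. Calls among list members were 0, 3, 1, 1, 2 and 27 in that order. Leaving out 1 library gave 2 to 117 calls, and 2 to 39 among list members. The 13 interaction calls were 0 without the filter, 6 with the stricter filter, 8 after quantile normalization, 7 without the trend, 0 with all 10 libraries and 132 in DESeq2, and 0 to 79 with 1 library left out. A left-out library leaves a lone pool that is assumed to vary like the others. With a pseudocount of 0.1, 86 genes were at least 2-fold apart in both weeks. Without the pairing by week (no replicate block) the counts were 6, of which 5 were shared, and 11. Apart from the fewer or more genes and libraries entered, the cause of these shifts was not tested. Depth limits genes with few reads, such as Cidea on the Western diet.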

Other observations

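Other gene groups in CCl4 livers showed small or uneven diet differences. Among chemokine and cytokine genes 0 of 20 tested members had an unadjusted p under 0.05 on the higher side and 3 on the lower side, with no call in limma, edgeR or DESeq2, and the median was -0.34 (-0.23 at 12 weeks and -0.15 at 24 weeks). The monocyte attractant Ccl2 stood at 6.24 and 4.42 on the normal diet and 1.498 and 2.79 on the Western diet, and the interferon-induced attractant Cxcl10 at 15.7 and 7.63 on the normal diet and 3.46 and 6.09 on the Western diet. Ccl5, made by T cells, was on the other side, at 3.26 and 5.05 on the normal diet and 8.03 and 6.87 on the Western diet, with both Western-diet values above both normal-diet values (0.73 ± 0.23, adjusted p = 0.561).

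Targets of p53 were higher on the Western diet at 12 weeks and level at 24 weeks, with a median of 0.13 (0.24 at 12 weeks and -0.03 at 24 weeks), and 4 of 23 tested members had an unadjusted p under 0.05 on the higher side and 0 on the lower side. The growth inhibitor Phlda3 stood at 5.77 and 6.47 on the normal diet and 12.4 and 9.54 on the Western diet (0.74 ± 0.19, adjusted p = 0.455), and the ectodysplasin receptor Eda2r at 5.53 and 6.71 on the normal diet and 14.4 and 8.13 on the Western diet (0.74 ± 0.25, adjusted p = 0.595). The cell cycle inhibitor Cdkn1a was at 30.6 and 66.1 on the normal diet and 76.8 and 68.8 on the Western diet, so that 1 pool, on normal diet at 12 weeks, was low. Genes of amino acid breakdown and the urea cycle were higher in both weeks in 20 of 34 tested and lower in 5, with a median of 0.27 (0.39 at 12 weeks and 0.05 at 24 weeks). The glycine decarboxylase Gldc stood at 146 and 148 on the normal diet and 290.2 and 179 on the Western diet (0.63 ± 0.17, adjusted p = 0.471), whereas Oat, on the same list, had the opposite direction.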
